A study of Mus musculus with 20 samples.

Results

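Tumours of mice that received propafenone together with anti-PD-1 were compared with tumours of mice that received control IgG, gene by gene. The comparison takes every column labelled for either group, which gives 10 of the 20 tumours of the series, 5 a side. B16F10 is a pigmented mouse melanoma line of C57BL/6 origin, here implanted into immunocompetent C57BL/6 mice of wild type genotype. Dosing was intraperitoneal and began once a tumour was near 100 mm3, and tumours were removed on day 16. IgG mice had neither propafenone nor anti-PD-1, and combination mice had both, so the comparison does not separate the agents; the remaining 10 tumours had propafenone or anti-PD-1 without the other. Of 32285 genes in the deposited table, 15875 passed a filter on low counts and were tested, and all of them are members of this comparison.

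Anti-PD-1 is an antibody that keeps the inhibitory receptor PD-1 of activated T cells from binding its ligands, and propafenone is a medicine against cardiac arrhythmia whose main target is the sodium channel of the heart. Ferroptosis, which the submitters name in their title, is a death of cells driven by iron-dependent peroxidation of membrane lipids and held back by the peroxidase GPX4 and the cystine transporter SLC7A11. A melanoma grown in mice holds tumour cells, macrophages, lymphocytes, fibroblasts and vessels, and bulk RNA adds these sources together. Fewer cells of a type and less RNA per cell therefore cannot be told apart in any value below.

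Libraries held 58.7 to 64.5 M expected counts (M, 1e6; IgG 60.4 ± 1.14 M, combination 62.4 ± 1.31 M, mean ± SD, n = 5 each), and within-group correlations of log2 expression were 0.965 to 0.986. Levels are given as CPM, counts per 1e6 counts of the library after TMM scaling. Markers of the melanocyte lineage were abundant in every tumour, as the labelled cell type has them: their summed level was 21590 to 30260 CPM in IgG tumours and 27660 to 29980 CPM in combination tumours, and Tyrp1, Dct and Pmel averaged 5136, 4996 and 3501 CPM after IgG. Libraries stood apart in 2 respects. Combination 3 held 129 CPM of skeletal muscle genes, against 663 to 864 CPM in the other 4 combination tumours and 95.6 to 241 CPM in IgG tumours. IgG 4 and IgG 5 held 1618 and 3181 CPM of Hbb-bs, a globin of red blood cells, against 57.9 to 262 CPM in the other 8.

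edgeR's quasi-likelihood test called 774 of 15875 genes at a Benjamini-Hochberg adjusted p under 0.05, which is 4.88% of the genes tested. Of these, 356 rose (2.24%) and 418 fell (2.63%). Of all 15875 genes, 3741 had an unadjusted p under 0.05, and DESeq2 called 1423, 787 higher and 636 lower. Counts in the lists below, of edgeR calls, of unadjusted p or of DESeq2 calls, are to be read beside these numbers for all genes tested. The 2 directions differed in kind. Genes that rose had a median log2 change of 1.64, 283 of them at least 2-fold and 109 at least 4-fold, and a median level of 2.27 TPM (a length-corrected unit of transcript abundance). Genes that fell had a median log2 change of -0.36, 30 of them at least 2-fold, and a median level of 66.5 TPM. Over all tested genes the medians were -0.01 and 13.1 TPM. Tumours of a group also varied more for the first set: the median coefficient of variation across IgG tumours was 49.2% for genes that rose and 7.97% for genes that fell.

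**Figure D1:**
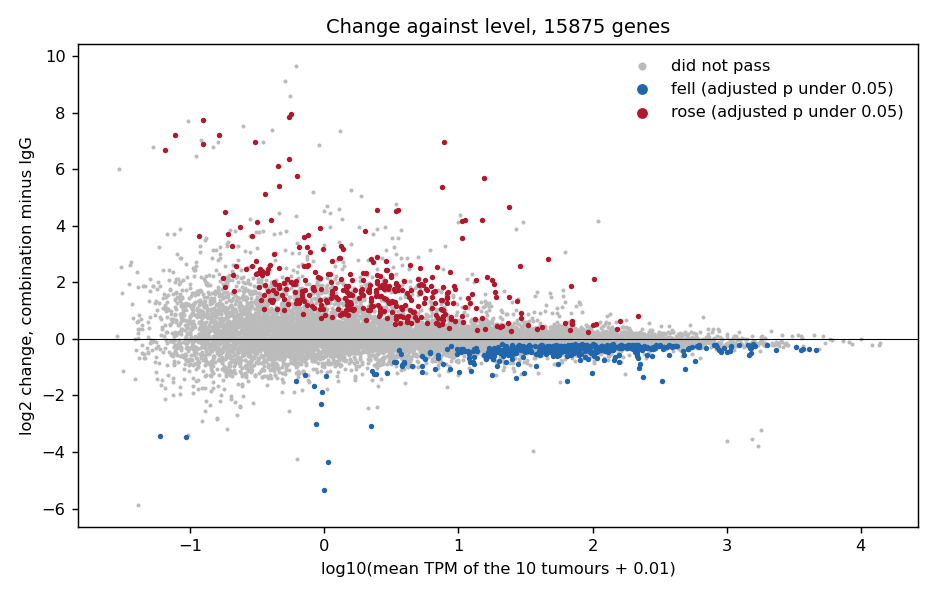
Each point is 1 of 15875 genes, with the log10 of its mean level over the 10 tumours (TPM + 0.01) on the x axis and the log2 change of combination against IgG on the y axis. The 356 genes that rose (red) sit mostly at low levels with changes above 1, and the 418 that fell (blue) form a thin band just below 0 at higher levels.

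The balance of the directions moved with the scaling. Higher genes made up 46.0% of the calls with TMM, 76.7% with library totals, 58.5% with DESeq2 size factors, 65.2% with counts divided by 4, and 87.1% and 85.5% in limma fits of log2(TPM + 1) and log2(TPM + 0.1). The median log2 change of all genes was -0.01 with TMM, 0.06 with library totals and 0.01 with DESeq2 size factors. In the 2 TPM fits it was 0.08 and 0.10, and list medians under these scalings are to be read beside these values. Genes that rose numbered 368 with library totals, 306 with DESeq2 size factors, 472 with counts divided by 4, and 897 and 773 in the TPM fits. Those that fell numbered 112, 217, 252, 133 and 131 in the same order. All 774 genes kept their direction in the fits on library totals, DESeq2 size factors and TPM, as did the 736 of them that were tested with counts divided by 4. Because these fits reuse the tumours in which the genes were called, kept directions are no independent support.

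Individual tumours carried the calls to unequal degrees. Of the 356 genes that rose, 351, 313, 319, 337 and 354 were above all 5 IgG tumours in combination 1 to 5. Of the 418 that fell, 401, 410, 403, 410 and 414 were below all 5 IgG tumours. Groups did not overlap for 257 of the genes that rose and 378 of those that fell. Among all tested genes the combination lay wholly above IgG for 749 (4.72%) and wholly below for 1145 (7.21%). Leaving out IgG 3 left 5 calls: Postn, Mgl2, Casq1, Pvalb and Xist. These same 5 genes passed in each of the 10 fits that left out 1 IgG or combination tumour. Of the named genes below that passed with all tumours, 13 passed in none of those 10 fits: Cd209d, Csf1, Ier3, Mmp23, Vdac3, Ndufv2, Ndufv3, Uqcrfs1, Egr3, Map2k4, Map2k7, Cdkn1a and Fech.

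Periostin led the comparison. Postn (chr3:54361109-54391037, plus strand, GRCm38), which encodes a matrix protein secreted by activated fibroblasts, measured 14.8, 20.1, 14.6, 22.9 and 18.3 CPM in IgG tumours 1 to 5 and 56.3, 39.8, 60.2, 51.6 and 47.7 CPM in combination tumours 1 to 5. The lowest combination tumour lay above the highest IgG tumour. The log2 change was 1.50 ± 0.181 SE (edgeR adjusted p = 0.00092), and leaving out single tumours moved it only from 1.43 to 1.62.

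Other genes with the smallest p included members of no stromal or myeloid list. Arl4c, a small GTPase, measured 0.442, 1.27, 0.581, 1.72 and 0.884 CPM in IgG tumours 1 to 5 and 4.87, 2.56, 3.6, 2.74 and 3.49 CPM in combination tumours 1 to 5, without overlap (1.81 ± 0.315 SE, edgeR adjusted p = 0.012). Lsp1, an actin-binding protein of leukocytes, measured 1.19, 4.42, 1.34, 5.17 and 3 CPM in IgG tumours 1 to 5 and 9.89, 8.88, 17.1, 9.29 and 10.6 CPM in combination tumours 1 to 5, and Tlr2, a receptor for bacterial lipopeptides, measured 0.932, 1.35, 0.813, 1.89 and 1.33 CPM in IgG tumours 1 to 5 and 4.02, 3.01, 2.88, 2.72 and 3.1 CPM in combination tumours 1 to 5. They rose by 1.88 and 1.31 (both adjusted p = 0.013), with combination 3 the highest tumour for Lsp1. Flnc, the filamin of muscle, rose by 2.75 (adjusted p = 0.012) but measured 4.36 CPM in combination 3, against 21.5 to 29.6 CPM in the other 4. Genes with the smallest p that fell had narrow ranges. Rnf126, a ubiquitin ligase, measured 132, 155, 144, 129 and 151 CPM in IgG tumours 1 to 5 and 82.1, 88.5, 98.1, 77.6 and 74.2 CPM in combination tumours 1 to 5 (-0.76 ± 0.136 SE, 0.012). Scarb1, the receptor for high-density lipoprotein, measured 309, 253, 298, 267 and 288 CPM in IgG tumours 1 to 5 and 213, 198, 221, 206 and 194 CPM in combination tumours 1 to 5 (-0.46 ± 0.0857 SE, 0.013). Neither overlapped. Abcb6, a porphyrin transporter, Tubg2, a gamma-tubulin, Nabp2, a single-stranded DNA binding protein, Epop, Stambp and Rps27l fell by 0.37 to 0.56 (adjusted p = 0.013 each), all without overlap.

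Macrophage genes gave 17 calls. Of 28 macrophage and monocyte genes, all tested, 17 rose and 11 did not pass; 28 had higher mean changes, from 0.80 to 2.25, with a median of 1.67 against -0.01 over all genes. In 15 of them every combination tumour exceeded every IgG tumour. Lyz2 (chr10:117277331-117282321, minus strand), the lysozyme of myeloid cells, measured 10.6, 35.5, 8.6, 43 and 20.3 CPM in IgG tumours 1 to 5 and 93.5, 59.8, 167, 83.3 and 112 CPM in combination tumours 1 to 5. Its change was 2.13 ± 0.46 SE (edgeR adjusted p = 0.024), with combination 3 the highest and IgG 1 and 3 the lowest. C5ar1, the receptor for the complement fragment C5a, measured 1.08, 1.73, 0.664, 3.67 and 1.07 CPM in IgG tumours 1 to 5 and 7.75, 4.84, 7.32, 5.57 and 6.5 CPM in combination tumours 1 to 5. It rose by 1.96 ± 0.385 SE (adjusted p = 0.017) without overlap, IgG 4 being the nearest to the combination. Further members that rose were Mrc1, the mannose receptor (1.72, adjusted p = 0.026), Clec4n, a lectin receptor for fungal sugars (1.67, 0.025), and Fcgr2b, the inhibitory Fc receptor (1.08, 0.026).

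IgG tumours fell into lower and higher ones for these genes, as their summed level shows. It was 65.6, 211, 55.1, 198 and 75.4 CPM in IgG 1 to 5 and 440, 236, 509, 291 and 417 CPM in combination 1 to 5. IgG 2 and IgG 4 lay close under combination 2, and no tumour crossed. In combination 3, the tumour with little muscle RNA, 26 of the 28 genes were above all IgG tumours. How many of all tested genes were so in this 1 tumour was not counted. With the skeletal muscle score as a covariate edgeR called 0 of the 28 (DESeq2, without the covariate, called 25), and their median change was 1.06. The part of muscle RNA in the result was not tested further. Without IgG 3 the count was 0, while over all alternatives it ran from 0 to 25.

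Genes tied to alternative activation and tissue repair were led by Mgl2 (chr11:70130329-70137550, plus strand), a lectin receptor of macrophages and dermal dendritic cells. It measured 0.491, 0.5, 0.232, 0.563 and 0.368 CPM in IgG tumours 1 to 5 and 1.95, 1.7, 4.31, 4.54 and 1.84 CPM in combination tumours 1 to 5. Combination 3 and 4 were the highest, and no IgG tumour reached the lowest combination tumour; the change was 2.73 ± 0.397 SE (edgeR adjusted p = 0.0038). Of 18 genes on that list 5 rose and 13 did not pass, with 18 higher and a median of 1.86. Stab1, a scavenger receptor, rose by 1.08 (adjusted p = 0.032) and Maf, a transcription factor of tissue macrophages, by 0.51 (0.031). Cd209d, a lectin, was at 0 in every IgG tumour, so a rise was the only call open to it. It averaged 0.253 CPM after the combination, 5.1-fold higher against an assumed floor of 3 counts per library (adjusted p = 0.048). It passed in none of the 10 fits that left out a tumour. Arg1, a classical marker of this state that lay outside the naming rule, measured 1.62, 3.81, 1.96, 4.3 and 2.84 CPM in IgG tumours 1 to 5 and 2.61, 1.88, 8.81, 0.845 and 2.98 CPM in combination tumours 1 to 5 (0.24, adjusted p = 0.89), with every IgG tumour inside the range of the combination.

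The promoters of Mgl2 and Lyz2 are shown because macrophage genes are known targets of the ETS factor PU.1. Each is the 250 bases before the start site in the RefSeq table of GRCm38.p6, 5′ to 3′ on the gene's strand: chr11:70130107-70130356 (plus) and chr10:117282273-117282522 (minus). Capitals mark GAGGAA or its reverse complement TTCCTC.
Mgl2: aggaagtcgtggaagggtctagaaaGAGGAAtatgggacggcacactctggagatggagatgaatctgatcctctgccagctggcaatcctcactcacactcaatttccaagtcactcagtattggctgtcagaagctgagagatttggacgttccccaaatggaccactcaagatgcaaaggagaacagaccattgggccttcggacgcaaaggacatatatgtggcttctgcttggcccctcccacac
Lyz2: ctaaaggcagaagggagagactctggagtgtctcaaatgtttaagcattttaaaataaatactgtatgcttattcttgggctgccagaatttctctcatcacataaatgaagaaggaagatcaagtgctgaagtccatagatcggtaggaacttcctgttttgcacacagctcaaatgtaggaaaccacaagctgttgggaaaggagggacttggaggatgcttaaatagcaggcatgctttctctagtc
The Mgl2 window holds 1 match and the Lyz2 window none. A match was found in the windows of 9 of 20 macrophage genes present in the table (45%), 89 of 267 genes that rose (33.3%), 75 of 342 that fell (21.9%) and 2725 of 11922 tested genes (22.9%). These are letter matches, described without a test.

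Other myeloid cells showed smaller counts. Dendritic cell genes had 3 of 16 rising and 15 higher (median 0.70). Cd83, a surface marker of mature dendritic cells, measured 0.115, 0.549, 0.183, 0.716 and 0.221 CPM in IgG tumours 1 to 5 and 2.97, 3.2, 1.97, 1.66 and 3.17 CPM in combination tumours 1 to 5, without overlap (2.85 ± 0.508 SE, edgeR adjusted p = 0.012). Naaa, a lipid amidase of dendritic cells, rose by 0.81 (adjusted p = 0.02) and Wdfy4, needed for cross-presentation, by 1.80 (0.031). Of 15 mast cell genes 7 passed the filter on low counts, and 3 of these rose at low levels. They were Mcpt4 (mean 0.128 and 1.24 CPM, 3.27, adjusted p = 0.027), Tpsb2 (2.77, 0.031) and Cma1 (3.24, 0.039), all granule proteases. Their IgG medians were 0.066, 0.074 and 0 CPM. They could enter the test mainly through libraries where they were higher, so the filter in part set that share. Without IgG 4 the changes of Mcpt4 and Cma1 were 4.17 and 4.08. Of 7 neutrophil genes edgeR called 0, with 3 at an unadjusted p under 0.05 and 2 called by DESeq2. Of all 15875 genes, 3741 had such a p and DESeq2 called 1423. The defining marker Ly6g was at 0 in all 10 tumours. Csf3r and Mmp9 stood at 1.42 (adjusted p = 0.09) and 1.68 (0.099).

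Chemokines that draw monocytes rose with these markers. Ccl7, a ligand of CCR2, measured 0.9, 1.49, 1.58, 2.51 and 3.21 CPM in IgG tumours 1 to 5 and 7.79, 7.95, 8.56, 7.45 and 8.84 CPM in combination tumours 1 to 5. Combination tumours lay within a narrow range, all above the highest IgG tumour (2.07 ± 0.395 SE, edgeR adjusted p = 0.015). Ccl2, the main CCR2 ligand, measured 2.49, 2.21, 3.65, 5.93 and 5.23 CPM in IgG tumours 1 to 5 and 10.7, 11.3, 10.8, 9.23 and 13 CPM in combination tumours 1 to 5 (1.50, adjusted p = 0.028), again without overlap. Of 15 CC chemokines 5 rose, 10 did not pass, and the median was 1.27; the others that rose were Ccl12 (1.74, 0.022), Ccl9 (1.67, 0.029) and Ccl8 (2.60, 0.046), whose change was 3.40 without IgG 4. Ccl2, Ccl7 and Ccl12 are related genes, and how reads that match more than 1 gene were counted is not given. Among 12 CXC and other chemokines 3 rose: Cxcl14 (2.43, adjusted p = 0.031), Cxcl16 (1.71, 0.034) and the fibroblast product Cxcl12 (1.25, 0.037). Of 17 chemokine receptors 2 rose, among them Ccr2 (1.54, 0.04). In combination 3, 10 of 15 CC chemokines exceeded all IgG tumours, a share that was not counted over all tested genes. Their sum was 178 CPM there, against 76.2 to 105 CPM in the other 4.

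Complement genes included both receptors and soluble factors. Of 20 tested 7 rose, 19 were higher, and the median was 1.47. C3, the central component, measured 3.44, 8.54, 6.29, 13.1 and 2.28 CPM in IgG tumours 1 to 5 and 17.6, 10, 98.1, 24.9 and 23.2 CPM in combination tumours 1 to 5. Combination 3 held 98.1 CPM, and without it the log2 change was 1.50 in place of 2.37 (adjusted p = 0.03) and no longer passed. Cfb, of the alternative pathway, rose by 1.46 (adjusted p = 0.019), Cfp, properdin, by 1.59 (0.018) and C3ar1, the C3a receptor, by 1.89 (0.026).

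**Figure D2:**
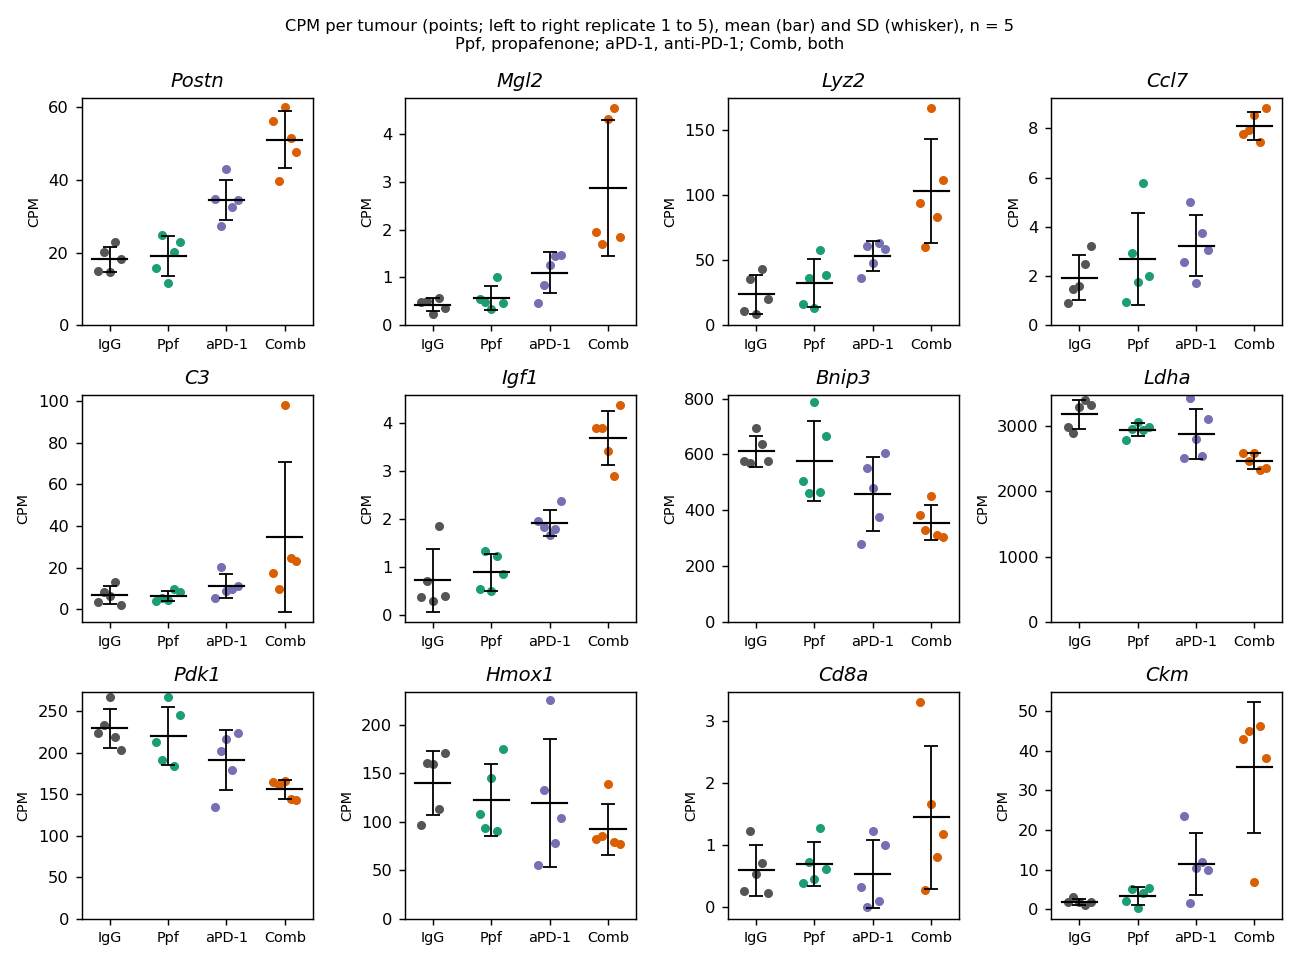
Each panel gives CPM of 1 gene on the y axis for the 5 tumours (points) of IgG, propafenone (Ppf), anti-PD-1 (aPD-1) and combination (Comb) mice, with the mean as a bar and the SD as a whisker. Postn, Mgl2, Lyz2, Ccl7 and Igf1 are higher and Bnip3, Ldha and Pdk1 lower in all 5 combination tumours than in all 5 IgG tumours, while Hmox1 and Cd8a overlap and Ckm is low in combination 3.

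T cell genes did not pass. edgeR called 0 of 23, with 3 at an unadjusted p under 0.05 and 0 called by DESeq2, although 21 were higher (median 0.91). Of all 15875 genes, 3741 had such a p and DESeq2 called 1423. The summed level of T cell genes overlapped, at 27 to 57.7 CPM after IgG and 30.2 to 54.6 CPM after the combination. Cd8a, the co-receptor of cytotoxic T cells, measured 0.262, 1.23, 0.531, 0.716 and 0.221 CPM in IgG tumours 1 to 5 and 3.31, 0.268, 1.66, 0.814 and 1.17 CPM in combination tumours 1 to 5. Combination 1 and 3 lay above all IgG tumours and the other 3 within the IgG range (1.28 ± 0.768 SE, edgeR adjusted p = 0.32). Trac, the T cell receptor alpha constant region, and Bcl11b, a T lineage factor, stood at 1.50 (adjusted p = 0.2) and 2.62 (0.19). The depth behind such levels is low: 1 CPM is near 60 counts in these libraries.

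Effector genes gave the same picture, with 1 call. Gzma, a granzyme of cytotoxic cells, rose from a mean of 0.0434 to 0.575 CPM (3.66, edgeR adjusted p = 0.049), and without IgG 4 its change was 4.68. It passed in 1 of 10 fits that left out a tumour. Among 17 cytotoxic and NK genes 14 were higher (median 1.07). Gzmb stood at 1.01 (adjusted p = 0.5), Prf1, perforin, at 1.68 (0.21) and Ifng, interferon gamma, at 0.30 (0.89). The sign of Ifng turned without IgG 3, without combination 1 and with the muscle covariate.

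Of 27 checkpoint genes tested 2 rose, 2 fell and 23 did not pass, where 2.24% of all genes rose and 2.63% fell. Vsir, which encodes the myeloid checkpoint VISTA, rose by 1.68 (edgeR adjusted p = 0.031), and Cd80, a ligand of CD28 and CTLA-4, by 1.37 (0.039). Pvr and Nectin2, ligands of TIGIT and CD226 on tumour cells, fell by 0.57 and 0.42 on the log2 scale (adjusted p = 0.027 and 0.046), both without overlap. Pdcd1, the gene of PD-1, measured 0.115, 1.13, 0.133, 0.767 and 0.0737 CPM in IgG tumours 1 to 5 and 2.51, 0.742, 1.24, 0.563 and 0.712 CPM in combination tumours 1 to 5 (1.37, 0.32). Cd274, which encodes its ligand PD-L1, measured 5.41, 12, 6.67, 7.91 and 3.3 CPM in IgG tumours 1 to 5 and 16.8, 9.01, 16.5, 8.81 and 12.8 CPM in combination tumours 1 to 5 (0.86, 0.11). Ranges overlapped for both.

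B cell genes had 1 of 10 rising. Ighm, the constant region of IgM, measured 0.294, 1, 0.232, 2.56 and 0.516 CPM in IgG tumours 1 to 5 and 5.56, 3.57, 8, 5.76 and 5.1 CPM in combination tumours 1 to 5, without overlap (2.60 ± 0.557 SE, edgeR adjusted p = 0.021). IgG 4 was the highest of its group, and without it the change was 3.47. Ms4a1, which encodes the B cell marker CD20, was at 0 in all 10 tumours.

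Interferon and antigen presentation genes were mostly higher without many calls. Of 32 type I interferon response genes 3 rose and 31 were higher (median 0.95): Ifi44 rose by 2.11 (edgeR adjusted p = 0.02), Oas2, a sensor of double-stranded RNA, by 1.74 (0.04) and Trim30a by 1.47 (0.035). Of 17 interferon-inducible GTPases edgeR called 0, with 4 at an unadjusted p under 0.05 and 1 called by DESeq2, although all 17 were higher (median 1.23). Their summed level was 163 to 910.2 CPM in IgG and 477 to 1904 CPM in combination tumours, which overlap. Of 23 class I presentation genes 1 rose, where 2.24% of all tested genes did: H2-Q7, a non-classical class I gene (1.82, 0.026), which shares sequence with its neighbours. Its list had 23 higher with a median of 0.25, which became -0.05 with the muscle covariate. Of 14 class II genes edgeR called 0, with 4 at an unadjusted p under 0.05 and 0 called by DESeq2 (median 0.40, or -0.21 with the covariate). Among 28 TNF and NF-kappaB targets 3 rose, Ccl2 above, Tnfaip6 (0.97, 0.026) and the macrophage growth factor Csf1 (0.71, 0.049), and Ier3 fell by 1.35 (0.044). Neither Csf1 nor Ier3 passed in any of the 10 fits that left out a tumour.

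Members of the fibroblast and matrix lists rose as well. Of 30 fibroblast genes 7 rose and 23 did not pass, with 25 higher and a median of 1.01, and 11 did not overlap. After Postn they included Lum, the collagen-binding proteoglycan lumican (0.834, 1.99, 0.83, 3.04 and 1.31 CPM in IgG tumours 1 to 5 and 3.71, 6.93, 10.1, 5.26 and 4.82 CPM in combination tumours 1 to 5). IgG 4 was the highest of its group and the groups did not overlap (1.94 ± 0.364 SE, edgeR adjusted p = 0.013). Fap, a protease of activated fibroblasts, rose by 1.22 (adjusted p = 0.026) and Pdgfra, a growth factor receptor of fibroblasts, by 1.05 (0.026). Without IgG 3 the list had 1 call.

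Collagens and other matrix proteins gave smaller shares. Of 33 collagen chains 4 rose: Col14a1 (1.50, edgeR adjusted p = 0.024), Col5a2 (1.02, 0.039), Col3a1 (1.86, 0.041) and Col8a1 (0.80, 0.046), with a list median of 0.42. Of 51 matrix glycoproteins and proteoglycans 9 rose and 42 were higher (median 0.71). Vcan, the proteoglycan versican, measured 1.46, 2.13, 2.47, 3.85 and 2.65 CPM in IgG tumours 1 to 5 and 6.37, 5.03, 9.02, 5.48 and 8.78 CPM in combination tumours 1 to 5, without overlap (1.47 ± 0.278 SE, 0.014). Lama2, a laminin chain of muscle and nerve basement membrane, rose by 0.86 (0.014) and Eln, elastin, by 2.45 (0.018). Among 37 proteases and inhibitors 3 rose: Mmp19 (1.43, 0.017), Mmp23 (0.99, 0.041) and Plau, urokinase (1.06, 0.024).

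Growth factor and vessel lists had few calls, and their summed levels overlapped between the groups, with no combination tumour above the highest IgG tumour. For angiogenic ligands 4 combination tumours were below the lowest IgG tumour (514 to 736 CPM after the combination, 686 to 838 CPM after IgG). Igf1, insulin-like growth factor 1, measured 0.36, 0.71, 0.282, 1.86 and 0.387 CPM in IgG tumours 1 to 5 and 3.89, 3.9, 3.41, 2.9 and 4.38 CPM in combination tumours 1 to 5. All combination tumours were above IgG 4, the highest IgG tumour, without which the change was 3.10 in place of 2.36 (edgeR adjusted p = 0.012). Of 27 TGF-beta and IGF genes 4 rose, the others being the IGF binding proteins Igfbp6 (1.87, 0.025) and Igfbp5 (2.29, 0.036) and Ltbp4, which binds latent TGF-beta (0.71, 0.032). Endothelial genes had 2 of 26 rising, the receptors Aplnr (1.65, 0.026) and Tek (1.72, 0.029), where 2.24% of all tested genes rose. Of 20 angiogenic ligands edgeR called 0, with 2 higher and 2 lower at p under 0.05 before adjustment, and DESeq2 called 2 higher and 1 lower. Pgf, placental growth factor, stood at -1.51 (adjusted p = 0.059).

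Summed muscle RNA was above the highest IgG tumour in 4 combination tumours but not in combination 3. The muscle score of combination 3 was -0.76, within the IgG scores of -3.22 to 0.40. It is 1 tumour that also entered the calls, and the part of muscle RNA in the stromal genes was not tested. In combination 3, 24 of 30 fibroblast genes, 15 of 33 collagens and 34 of 51 matrix glycoproteins exceeded all IgG tumours. The share of all tested genes that did so in this 1 tumour was not counted. The summed fibroblast level was 4352 CPM in combination 3 and 3070 to 3375 CPM in the other 4, which lie within the 2804 to 3812 CPM of the IgG tumours. With the muscle score as a covariate 14 genes were called, 11 of them among the 774. They included Postn (1.50 became 1.24), Mgl2 (2.62), Vcan (1.91), Igfbp6 (2.69), Mmp23 (1.67), Col5a2 (1.59) and Xist (2.33). On the log2(TPM + 1) scale, which understates changes of low genes, the median was 0.63 in place of 1.01 for fibroblast genes, 0.20 in place of 0.42 for collagens and 0.85 in place of 2.77 for mast cell genes.

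**Figure D3:**
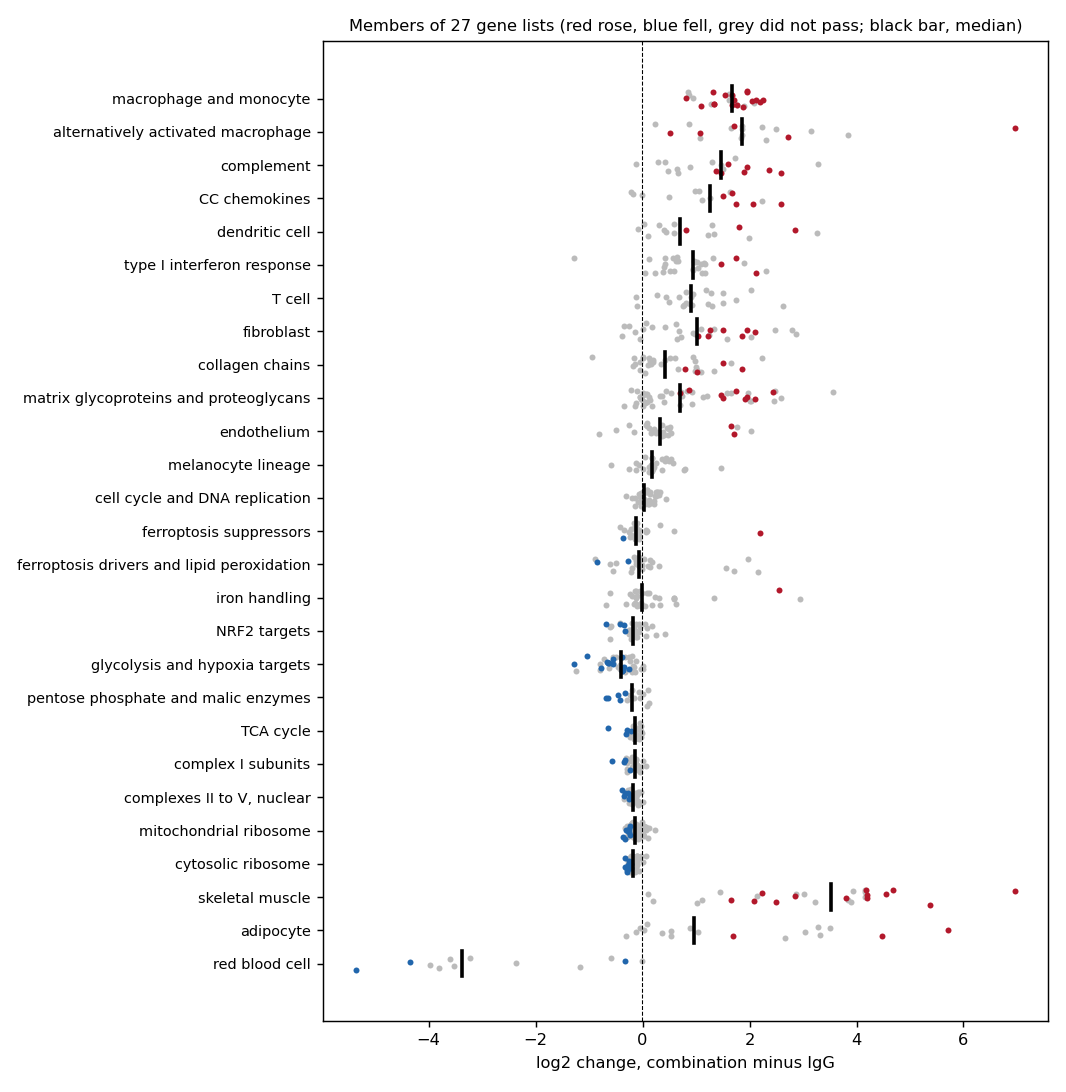
Each point is a tested member of 1 of 27 gene lists (y axis) at its log2 change of combination against IgG (x axis), red where it rose, blue where it fell and grey where it did not pass; black bars are medians. Myeloid, complement, fibroblast and muscle lists lie to the right of 0, and glycolysis, respiratory chain and ribosome lists lie in a narrow band to its left; fitted changes of genes at 0 in all IgG tumours, such as Cd209d at the far right, are not bounds.

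Genes of the tumour line's own lineage gave no edgeR calls. Of 28 melanocyte lineage genes edgeR called 0, with 7 higher and 1 lower at an unadjusted p under 0.05 and 6 called by DESeq2, and the median was 0.18. Without libraries over 1000 CPM of Hbb-bs, a haemoglobin gene, 11 rose and the median was 0.37. Their list score, the mean of centred log2 CPM, was -0.352 to 0.085 in IgG and 0.112 to 0.188 in combination tumours, whereas the summed level overlapped (21590 to 30260 and 27660 to 29980 CPM). Mitf, the master regulator of the lineage, measured 477, 260.5, 489, 602 and 506 CPM in IgG tumours 1 to 5 and 920.3, 630.3, 608, 656 and 658 CPM in combination tumours 1 to 5. The groups did not overlap, but IgG 2 was low and combination 1 high (0.57 ± 0.329 SE, adjusted p = 0.3). Of 24 genes of dedifferentiated melanoma 4 rose. They were Ahnak (15.8, 22.3, 17.7, 17 and 14.4 CPM in IgG tumours 1 to 5 and 34.9, 39.7, 42.4, 32.5 and 40.2 CPM in combination tumours 1 to 5; 1.12 ± 0.19 SE, 0.012), Ngfr, the nerve growth factor receptor (2.48, 0.024), Tnc, tenascin C (1.75, 0.031) and Egfr (1.36, 0.042). Stromal cells or nerve also express these genes.

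Cell cycle genes did not pass: edgeR called 0 of 43 (median 0.02). At an unadjusted p under 0.05 were 3 higher and 2 lower, where 3741 of all 15875 genes were, and DESeq2 called 0. Among 25 p53 targets 1 rose and 1 fell, where 2.24% of all tested genes rose and 2.63% fell. Cdkn1a, the cell cycle inhibitor p21, measured 391, 616, 554, 303 and 337 CPM in IgG tumours 1 to 5 and 179.7, 117, 190.3, 169 and 128 CPM in combination tumours 1 to 5. It fell by 1.49 ± 0.41 SE on the log2 scale (edgeR adjusted p = 0.046) without overlap, IgG 2 being the highest tumour, and passed in none of the 10 fits that left out a tumour. Eda2r, a TNF receptor family member, rose by 1.56 (0.031).

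Genes of glycolysis and the hypoxia response made up the largest fall in any metabolic list examined. Of 42 tested 15 fell and 27 did not pass, 40 were lower, and 25 had every combination tumour below every IgG tumour. The median was -0.41 against -0.01 over all genes, and -0.38 to -0.28 under the other scalings. Bnip3 (chr7:138890836-138909519, minus strand), a mitophagy receptor induced by HIF-1, measured 576, 569, 696, 636 and 577 CPM in IgG tumours 1 to 5 and 384, 329, 451, 309.8 and 303 CPM in combination tumours 1 to 5. It fell by 0.78 ± 0.182 SE on the log2 scale (edgeR adjusted p = 0.026). Its relative Bnip3l measured 288, 254, 322, 260 and 267 CPM in IgG tumours 1 to 5 and 193, 166, 214, 168 and 151 CPM in combination tumours 1 to 5 and fell by 0.64 ± 0.115 SE (0.012). Combination 3 was the highest and combination 5 the lowest of its group for both, and neither gene's groups overlapped.

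Enzymes of the pathway itself fell by less. Ldha (chr7:46841475-46855627, plus strand), lactate dehydrogenase A, measured 2991, 2899, 3294, 3404 and 3325 CPM in IgG tumours 1 to 5 and 2587, 2469, 2590, 2327 and 2362 CPM in combination tumours 1 to 5, without overlap (-0.37 ± 0.0748 SE, edgeR adjusted p = 0.018). Eno1, enolase, fell by 0.38 (0.019) and Pkm, pyruvate kinase, by 0.35 (0.023). Larger changes among members outside the naming rule, picked after their values were seen, were those of Ankrd37 and Ero1l. Ankrd37, an ankyrin repeat protein induced by HIF-1, measured 11.6, 10, 16, 8.99 and 7.74 CPM in IgG tumours 1 to 5 and 4.38, 3.87, 5.91, 4.4 and 3.95 CPM in combination tumours 1 to 5, without overlap (-1.27 ± 0.295 SE, 0.025). Ero1l, which forms disulfides in the endoplasmic reticulum, measured 1445, 1214, 1649, 1211 and 1496 CPM in IgG tumours 1 to 5 and 766, 547, 953, 606 and 522 CPM in combination tumours 1 to 5, without overlap (-1.05, 0.039). Vegfa, the vessel growth factor, measured 321, 340.3, 374, 249 and 257 CPM in IgG tumours 1 to 5 and 172, 167, 245, 147 and 154 CPM in combination tumours 1 to 5: the groups did not overlap, yet the test did not pass (-0.80 ± 0.291 SE, 0.11). Slc2a1, the glucose transporter, stood at -0.63 (0.062), also without overlap.

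Kinases of pyruvate dehydrogenase restrain its conversion of pyruvate to acetyl-CoA in the mitochondrial matrix. Pdk1 (chr2:71873224-71903858, plus strand) measured 224, 234, 267, 219 and 204 CPM in IgG tumours 1 to 5 and 165, 161, 167, 145 and 143 CPM in combination tumours 1 to 5, and the groups did not overlap (-0.56 ± 0.121 SE, edgeR adjusted p = 0.021). Pdk3 fell by 0.61 (0.012) and Pdpr, a regulatory subunit of the activating phosphatase, by 0.72 (0.021), which makes 3 of 14 genes of the complex and its regulators. Of 15 pentose phosphate genes and malic enzymes 5 fell: Dera, which degrades deoxyribose phosphate (107, 97.3, 99.3, 92.2 and 109.7 CPM in IgG tumours 1 to 5 and 75.5, 74.8, 74.2, 71.4 and 70.6 CPM in combination tumours 1 to 5; -0.46 ± 0.0805 SE, 0.012), G6pdx, the entry enzyme of the pathway (-0.69, 0.019), Tkt, transketolase (-0.32, 0.027), and the malic enzymes Me1 (-0.43, 0.028) and Me2 (-0.65, 0.013). With the muscle covariate the median of that list was 0.00 in place of -0.19.

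Glycogen genes, a group picked after the values were seen, held a further set. Gys1, glycogen synthase, measured 358, 288, 384, 363 and 372 CPM in IgG tumours 1 to 5 and 217, 188, 252, 185 and 166 CPM in combination tumours 1 to 5, without overlap (-0.81, edgeR adjusted p = 0.021). It was 1 of 6 that fell among 22 glycogen genes tested, as were Ppp1r3e (-0.81), the branching enzyme Gbe1 (-0.71), Epm2a, laforin (-0.59), and Pgm1 (-0.58). Ppp1r3c, a glycogen-targeting phosphatase subunit abundant in muscle, rose by 4.12.

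Promoters of 4 of the genes that fell are printed because HIF factors are known to bind ACGTG. Only this form of their site was searched, so a window without a match may hold another form. They are the 250 bases before the start site in RefSeq, GRCm38.p6, 5′ to 3′ on the gene's strand, from the first window listed for each gene: chr7:138909507-138909756 (minus), chr7:46845554-46845803 (plus), chr8:45999851-46000100 (minus) and chr2:71872974-71873223 (plus). Capitals mark ACGTG or its reverse complement CACGT, which overlap in the palindrome CACGTG, also the E-box of MITF and MYC.
Bnip3: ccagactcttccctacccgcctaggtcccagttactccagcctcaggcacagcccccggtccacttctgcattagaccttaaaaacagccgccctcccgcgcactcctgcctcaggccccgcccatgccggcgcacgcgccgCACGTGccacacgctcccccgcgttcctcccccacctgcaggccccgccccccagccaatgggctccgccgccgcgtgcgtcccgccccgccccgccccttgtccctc
Ldha: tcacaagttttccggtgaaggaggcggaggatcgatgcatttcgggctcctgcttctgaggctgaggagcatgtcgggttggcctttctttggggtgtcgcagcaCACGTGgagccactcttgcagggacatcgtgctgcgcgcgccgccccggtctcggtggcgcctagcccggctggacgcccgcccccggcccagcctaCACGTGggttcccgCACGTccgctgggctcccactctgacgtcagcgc
Ankrd37: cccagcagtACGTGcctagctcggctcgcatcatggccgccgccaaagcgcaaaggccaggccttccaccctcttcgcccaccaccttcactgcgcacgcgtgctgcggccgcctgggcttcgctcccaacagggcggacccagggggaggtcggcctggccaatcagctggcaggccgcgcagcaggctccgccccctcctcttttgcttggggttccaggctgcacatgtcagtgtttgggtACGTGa
Pdk1: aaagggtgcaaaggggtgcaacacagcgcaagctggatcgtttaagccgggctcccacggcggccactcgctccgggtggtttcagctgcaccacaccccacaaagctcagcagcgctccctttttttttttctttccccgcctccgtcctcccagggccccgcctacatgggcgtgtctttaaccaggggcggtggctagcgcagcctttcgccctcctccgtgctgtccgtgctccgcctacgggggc
Bnip3 shows 1 marked run, Ldha 3, Ankrd37 2 and Pdk1 none; the Ldha window lies inside the span that GENCODE gives the gene. The motif was in the windows of 17 of 37 genes of the glycolysis and hypoxia list (45.9%) and 6 of the 13 that fell and had a window (46.2%). It was in 100 of 342 genes that fell (29.2%), 31 of 267 that rose (11.6%) and 2523 of 11922 tested genes (21.2%). None of the 20 macrophage windows held it.

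Combination 3 also stood apart for these genes. It was the combination tumour nearest to IgG for the glycolysis and hypoxia list, with a score of -0.02 against -0.43 to -0.24 in the other 4, where the score averages the log2 CPM of the members after centring each gene over the 20 tumours. IgG tumours scored 0.12 to 0.34. In combination 3, 27 of the 42 genes were below all IgG tumours, a share that was not counted over all tested genes. With the muscle covariate edgeR called 0 of the 42 (without it 30 were lower before adjustment at p under 0.05, and 22 by DESeq2), and the median was -0.16.

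**Figure D4:**
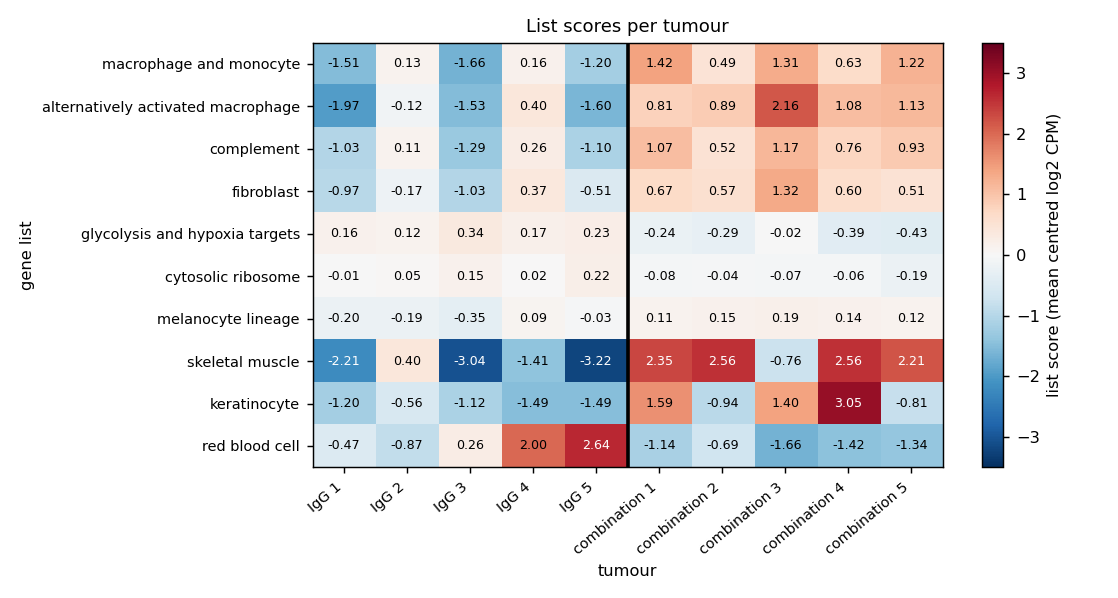
Rows are 10 gene lists, columns the 10 tumours, and each cell gives the list score, that is the centred log2 CPM averaged over members as in the text. Macrophage, complement and fibroblast scores are higher and the hypoxia score lower in all 5 combination tumours than in all 5 IgG tumours, the muscle score of combination 3 (-0.76) is under that of IgG 2 (0.40), and red blood cell scores peak in IgG 4 and IgG 5.

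Nuclear genes of mitochondria were lower by small amounts. Of 36 complex I subunits 4 fell and 34 were lower (median -0.15): Ndufs3 (-0.32, edgeR adjusted p = 0.03), Ndufa10 (-0.34, 0.031), Ndufv2 (-0.23, 0.041) and Ndufv3 (-0.58, 0.047). Of 40 nuclear subunits of complexes II to V 6 fell and 39 were lower (median -0.19). Atp5g1, a membrane subunit of ATP synthase, measured 128, 166, 153, 154 and 163 CPM in IgG tumours 1 to 5 and 128, 119, 120.2, 114 and 107 CPM in combination tumours 1 to 5 (-0.38 ± 0.0853 SE, 0.024), with a slight overlap of the groups. Atp5g3 (-0.32), Cox6b1 (-0.25), Cox7c (-0.27) and the Rieske protein Uqcrfs1 (-0.34) also fell, with adjusted p of 0.026 to 0.029. In the log2(TPM + 1) fit 2 complex I genes and 2 of complexes II to V fell, with medians of -0.04 and -0.09. The median over all genes was 0.08 in that fit. Without libraries over 1000 CPM of the haemoglobin gene Hbb-bs 1 fell in each list (medians -0.08 and -0.12). With the muscle covariate the complex I median was 0.01 and that of complexes II to V -0.06.

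Of the 13 genes of mitochondrial DNA edgeR called 0, with 0 at an unadjusted p under 0.05 and 0 called by DESeq2. Their median was -0.02, against -0.01 over all genes. Under the other scalings it was 0.002 to 0.09, where the median over all genes was 0.01 to 0.10. mt-Co1, a catalytic subunit of cytochrome oxidase, stood at -0.21 (adjusted p = 0.3).

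Other mitochondrial groups were lower by similar amounts. Of 79 mitochondrial ribosomal genes 8 fell and 69 were lower (median -0.14). Mrpl45 measured 82.8, 90.2, 88.6, 81.8 and 91.7 CPM in IgG tumours 1 to 5 and 74.6, 67.5, 71.1, 65.4 and 69 CPM in combination tumours 1 to 5, without overlap (-0.32 ± 0.0579 SE, edgeR adjusted p = 0.012), and Mrpl30, Mrpl10, Mrpl17 and Mrpl20 fell by 0.23 to 0.36. Import, protease and chaperone genes had 4 of 52 falling: Prelid1, a lipid carrier (-0.35, 0.012), the matrix protease Lonp1 (-0.33, 0.012), the import pore Tomm40 (-0.28, 0.026) and the protease Afg3l1 (-0.26, 0.031). The outer membrane channels Vdac1 (-0.44, 0.017) and Vdac3 (-0.27, 0.035) and the ADP/ATP carrier Slc25a5 (-0.23, 0.029) fell too, 5 of 26 on the mitophagy and VDAC list with Bnip3 and Bnip3l. All 22 TCA cycle genes were lower, and 4 fell: Idh3g (-0.30, 0.02), Mdh2 (-0.30, 0.028), Cs, citrate synthase (-0.21, 0.039), and Me2 above. These small medians moved with the scaling, as did the median over all genes. The latter was -0.01 as reported and 0.08 in the log2(TPM + 1) fit. In the log2(TPM + 1) fit the medians were -0.04 for mitochondrial ribosomal, -0.03 for import and -0.03 for TCA cycle genes, in place of -0.14, -0.15 and -0.15. There 1 mitochondrial ribosomal gene fell and 1 rose, and 1 TCA cycle gene fell. Without the libraries rich in Hbb-bs the mitochondrial ribosomal median was -0.07.

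Cytosolic ribosomal proteins, which are not mitochondrial, were lower by as much. 9 of 75 fell, 73 were lower and 34 did not overlap (median -0.19, or -0.16 to -0.08 under the other scalings). Over all tested genes the combination lay wholly below IgG for 7.21%. With the muscle covariate edgeR called 0 of the 75 and the median was -0.03. Across all alternatives the number that fell ran from 0 to 27. Rps13 fell by 0.32 (edgeR adjusted p = 0.021), Rps2 by 0.30 (0.028), Rpl13a by 0.23 (0.032) and Rpl35 by 0.22 (0.039). Processed copies of ribosomal genes make such counts uncertain.

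Ferroptosis genes did not shift as a group. Among 28 suppressors 1 rose and 1 fell (median -0.12), where 2.24% of all tested genes rose and 2.63% fell. Among 29 drivers and lipid peroxidation genes 2 fell, 10 were higher and 19 lower. Their median was -0.06, which turned positive under library totals, both TPM fits, the muscle covariate and the fit without the Hbb-rich libraries. In the log2(TPM + 1) fit it was 0.05, where the median over all genes was 0.08. With the covariate it was 0.02 against -0.02 over all genes, and without the Hbb-rich libraries 0.007 against 0.003. Gpx4, the lipid peroxidase, measured 242, 255, 269.6, 258 and 292 CPM in IgG tumours 1 to 5 and 220.5, 207, 219.7, 203 and 189 CPM in combination tumours 1 to 5. Every combination tumour was below every IgG tumour, but the test did not pass (-0.34 ± 0.113 SE, edgeR adjusted p = 0.078). Slc7a11 stood at -0.13 (0.85) and Acsl4, which activates polyunsaturated fatty acids, at -0.05 (0.88). The suppressors that passed were the small heat shock gene Hspb1, which rose by 2.19 (0.012) and is abundant in muscle, and the metallothionein Mt1, which fell by 0.37 (0.032). The drivers that fell were Gls2, a glutaminase (-0.84, 0.03), and Vdac3. In combination 3 Hspb1 measured 3.09 CPM, within the IgG range, against 10.4 to 16.1 CPM in the other 4 combination tumours.

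Iron genes gave 1 call and antioxidant genes were slightly lower. Hmox1, haem oxygenase 1, measured 96.9, 160.4, 159, 113 and 170.3 CPM in IgG tumours 1 to 5 and 81.8, 85.2, 139, 79.2 and 76.7 CPM in combination tumours 1 to 5. Combination 3 lay within the IgG range while the other 4 lay under the lowest IgG tumour (-0.60 ± 0.304 SE, edgeR adjusted p = 0.24). Tfrc, the transferrin receptor, stood at -0.12 (0.58), and the ferritin chains Fth1 and Ftl1 at -0.24 (0.14) and -0.13 (0.45). Of 32 iron genes 1 rose, where 2.24% of all tested genes did. It was Lcn2, a siderophore-binding protein (2.56, 0.05), which measured 16.8 CPM in combination 3 and had a change of 1.36 without that tumour. Of 34 NRF2 targets 4 fell and 28 were lower (median -0.17): G6pdx, Tkt and Me1 above and the exporter Abcc1 (-0.35, 0.028). Their summed level was 9097 to 10760 CPM in IgG and 8046 to 8780 CPM in combination tumours, without overlap. In the log2(TPM + 1) fit 2 fell with a median of -0.07, where the median over all genes was 0.08.

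Stress kinase and chaperone genes gave few calls. Jun and Mapk8, the gene of the kinase JNK1, stood at -0.58 (edgeR adjusted p = 0.24) and -0.45 (0.21). Of 28 AP-1, immediate early and JNK genes Egr3 rose by 1.03 (0.044), and the JNK kinases Map2k4 and Map2k7 fell by 0.25 (0.039) and 0.24 (0.049); none of the 3 passed in any of the 10 fits that left out a tumour. Among 27 chaperones 1 fell, Tcp1 (-0.24, 0.027), where 2.63% of all tested genes fell. Of 29 ATF4 and unfolded protein response genes edgeR called 0, with 9 higher and 5 lower at an unadjusted p under 0.05 and 5 called by DESeq2. Pdia4 and Hsp90b1, chaperones of the endoplasmic reticulum, stood at 0.46 (0.058) and 0.29 (0.065). Cholesterol and fatty acid synthesis and lysosome genes had 0 edgeR calls of 33 and 38. At an unadjusted p under 0.05 were 5 and 6 of them, where 3741 of all 15875 genes were, and DESeq2 called 0 and 1. Psap, a lysosomal sphingolipid activator, stood at 0.24 (0.073).

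Tissue beyond the tumour differed between the groups as well. Of 28 skeletal muscle genes 13 rose and 28 were higher (median 3.52). Ckm, muscle creatine kinase, measured 1.9, 3.16, 1.76, 1.11 and 1.84 CPM in IgG tumours 1 to 5 and 43, 44.9, 6.83, 46.3 and 38.1 CPM in combination tumours 1 to 5 (4.19 ± 0.74 SE, edgeR adjusted p = 0.013). All combination tumours were above the highest IgG tumour, combination 3 by the least. Casq1, the calcium store protein of fast muscle, measured 0.867, 2.08, 1.26, 1.16 and 1.07 CPM in IgG tumours 1 to 5 and 8.04, 10.6, 2.38, 8.31 and 7.08 CPM in combination tumours 1 to 5 (2.50, 0.0038), and Pvalb, parvalbumin, 0.0654, 0.226, 0.133, 0.188 and 0.147 CPM in IgG tumours 1 to 5 and 6.81, 9.75, 1.49, 5.9 and 8.14 CPM in combination tumours 1 to 5 (5.38, 0.0054). Neither overlapped. Acta1, the skeletal actin, measured 1.49, 30.7, 0.183, 5.63 and 0.221 CPM in IgG tumours 1 to 5 and 153, 206, 9.19, 189 and 128 CPM in combination tumours 1 to 5 and did not pass (0.064), with combination 3 below IgG 2. Ldb3 (3.81, 0.012) and Myh4 (6.96, 0.018) rose, and their changes were 4.49 and 7.91 without IgG 2.

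Fat, blood and skin genes were measured in the same way. Adipocyte genes had 3 of 18 rising: Lpl, which macrophages and muscle also express (1.69, edgeR adjusted p = 0.024), Car3 (5.70, 0.027) and Pck1 (4.47, 0.047); the last 2 had changes of 7.45 and 7.68 without IgG 2. Adipoq, adiponectin, did not pass (0.061) and was at 0 in combination 3 and IgG 3. Red blood cell genes had 3 of 12 falling, among them Slc4a1 (-4.34, 0.034) and Fech (-0.34, 0.045). Without IgG 5 the change of Slc4a1 was -3.63 and did not pass. Hbb-bs stood at -3.23 (0.073). A fit without every library over 1000 CPM of Hbb-bs gave 977 calls, 561 higher and 416 lower. Keratinocyte genes had 0 edgeR calls of 17, with 11 at an unadjusted p under 0.05 and 2 called by DESeq2; their sum was 13.4 to 20.3 CPM after IgG and 16.1 to 75.5 CPM after the combination. Krt5, of basal keratinocytes, was at 0 in 4 of 5 IgG tumours and measured 1.66, 0.0789, 1.6, 5.66 and 0.0593 CPM in combination 1 to 5. Schwann cell genes had 0 edgeR calls of 12, 1 at an unadjusted p under 0.05 and 1 called by DESeq2.

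Xist (chrX:103460366-103483254, minus strand), the RNA that coats the inactive X chromosome, measured 2.9, 0.855, 2.22, 3.63 and 1.46 CPM in IgG tumours 1 to 5 and 9.26, 6.18, 12.6, 8.29 and 10.8 CPM in combination tumours 1 to 5. It rose by 2.09 ± 0.302 SE (edgeR adjusted p = 0.0038) without overlap, and by 2.33 with the muscle covariate. Its antisense partner Tsix was at 0 in all 10 tumours and the strand setting of the counting is not given. The Y-linked genes Ddx3y, Eif2s3y, Kdm5d, Usp9y and Uty were at 0 in all 20 tumours. Of 22 cardiac ion channel and adrenergic receptor genes 2 rose, among them Ryr1, the calcium release channel of skeletal muscle (1.65, 0.046). With the muscle covariate Ryr1 stood at -0.07.

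Comparisons of the combination with each agent alone use the same 5 combination tumours, so they are not independent of the comparison with IgG. Against propafenone alone edgeR called 616 genes (3.88%), 265 higher (1.67%) and 351 lower (2.21%). Postn averaged 19.1 ± 5.43 CPM after propafenone and 51.1 ± 7.88 CPM after the combination (mean ± SD, n = 5; 1.42, adjusted p = 0.0019). Mgl2 differed by 2.33 (0.013), Lum by 2.59 (0.0047), Lama2 by 1.02 (0.013) and Me2 by -0.66 (0.018). Vegfa, which did not pass against IgG, passed here (-1.10, 0.045), although these groups overlapped and those against IgG did not. It measured 191 to 604 CPM after propafenone, 147 to 245 CPM after the combination and 249 to 374 CPM after IgG. List members called were 4 of 28 macrophage (median 1.27), 10 of 30 fibroblast (median 1.17), 14 of 51 matrix glycoprotein and 9 of 42 glycolysis and hypoxia genes (median -0.39). Without propafenone 3, 4 genes were called, and without propafenone 4, 1882.

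Against anti-PD-1 alone no gene passed in edgeR (0 of 15875), and 1552 had p under 0.05 before adjustment. DESeq2 called 7, limma on log2(TPM + 1) 2 and limma voom 0. The 7 were Krt77, Naaa and Ighm, which were higher, and Atp5c1, Ndufc2, Rps27l and Tmem126a, which were lower. Postn averaged 34.4 ± 5.58 CPM after anti-PD-1 (combination minus anti-PD-1 0.57, edgeR adjusted p = 0.45), Mgl2 1.1 ± 0.434 CPM (1.38, 0.45), Bnip3 458 ± 132 CPM (-0.37, 0.52) and Ighm 0.814 ± 0.319 CPM (2.77, 0.26). The macrophage list had a median of 0.90, the fibroblast list 0.38 and the glycolysis and hypoxia list -0.24. A p that misses the threshold does not show that the combination and anti-PD-1 tumours were alike.

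**Figure D5:**
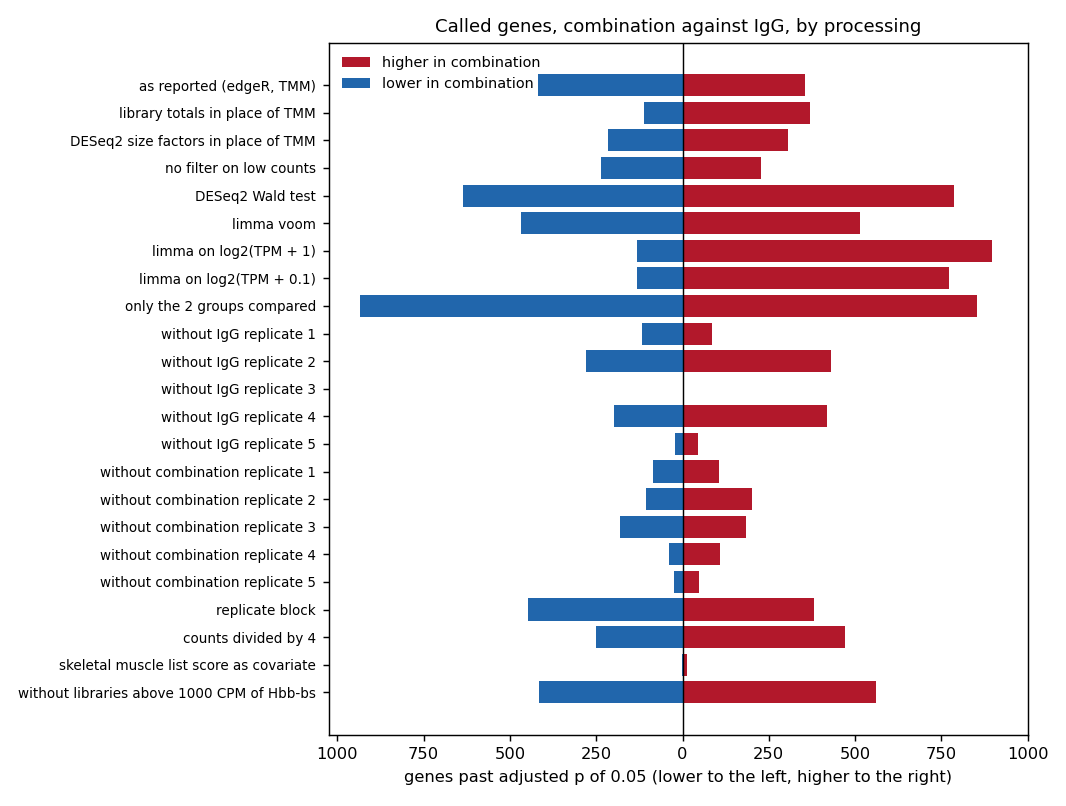
Bars give the number of genes past the threshold, higher (red, right) and lower (blue, left) in combination than in IgG tumours, for the reported fit and 22 other ways of processing the same data. Counts run from 5 without IgG 3 and 14 with the muscle score as a covariate to 1786 in a fit of the 2 groups alone.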

How the data were processed

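RNA of 20 B16F10 tumours was sequenced, 5 from each treatment group; the kit was SMARTER mRNA-seq, per the labels' protocols. The deposited gene table holds expected counts made by the authors, estimated counts per gene in whole numbers with no scaling. The authors also deposited TPM, which sum to a common total in each library and served as an alternative. FastQC, HISAT2 2.2.1, SAMtools 1.9, GRCm38 and mm10 are named in the submitters' processing notes; the counting tool, annotation and strand setting are not given in the sources used here. Among low values 4 is more frequent (11581 entries) than 3 (5505) or 5 (5409), so 1 fragment may stand for several counts, and intervals from counting error are not given.

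The test was edgeR 4.0.16 in R 4.3.3: TMM scaling, the filterByExpr filter by group, and a robust quasi-likelihood fit of all 20 libraries with 16 residual degrees of freedom; p-values were adjusted by Benjamini-Hochberg over 15875 genes with a threshold of 0.05. The common biological coefficient of variation was 0.252. Standard errors are those of log2 changes in that fit. Alternatives used DESeq2 1.42.0 and limma 3.58.1 with pseudocounts of 1 and 0.1 on log2(TPM + pseudocount), a scale that understates changes of low genes. A list score is the mean of members' log2 CPM (prior count 2) centred over all libraries. Coordinates are those of GENCODE M21, which held 32235 of the 32285 identifiers, and promoters those of the RefSeq table of GRCm38.p6, which held 11922 of 15866 tested symbols. The fits were tested on simulated data.

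The genes examined, the 57 lists and the tests were chosen with earlier results of these data known. Named genes are the 15 with the smallest p per direction that passed, average at least 1 CPM and have an ordinary symbol, a panel (Hmox1, Gpx4, Slc7a11, Acsl4, Tfrc, Fth1, Ftl1, Jun, Mapk8, Cd8a, Gzmb, Prf1, Ifng, Pdcd1, Cd274, Mitf, Vegfa, Xist and Hbb-bs), and in each list the members of smallest p, at most 5 a direction, or at most 2 where none passed. Other names, such as Arg1, Acta1, Adipoq, Krt5, Slc2a1, Ero1l, Ankrd37 and single lineage markers, were chosen after their values were seen. Some genes that this rule names are not reported here. The labels do not say whether tumours came from separate animals, so p-values measure the spread between these tumours. No 2 libraries of a group were alike within sampling noise.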

Additional observations from a re-analysis of the deposited data

Results flagged for a closer look

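Dixon's criterion was applied to 48 named genes in both groups, 96 sets of 5 tumours, and marked 9 single tumours that lay far from the rest of their group; chance marks about 1 in 20 such sets. Combination 3 accounted for 7 of them. Genes of skeletal muscle or abundant in it were low there. Ckm measured 6.83 CPM (others 38.1 to 46.3), Casq1 2.38 CPM (others 7.08 to 10.6), Pvalb 1.49 CPM (others 5.9 to 9.75), Flnc 4.36 CPM (others 21.5 to 29.6) and Hspb1 3.09 CPM (others 10.4 to 16.1). Lsp1 was high in the same tumour at 17.1 CPM (others 8.88 to 10.6), as was Hmox1 at 139 CPM (others 76.7 to 85.2). Mitf was marked in both groups, at 260 CPM in IgG 2 (others 477 to 602) and 920.3 CPM in combination 1 (others 608 to 658).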

How the results depend on the processing

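The main limits are the dependence on single tumours, the scaling of genes with small changes, and muscle RNA. Genes called between combination and IgG numbered 774 as reported. Without single tumours of the series the total ran from 5 (without IgG 3) to 1067, higher genes from 5 to 464 and lower genes from 0 to 603; the low ends apart from IgG 3 were 67 without IgG 5, 72 without combination 5, 147 without combination 4, 190 without combination 1, 202 without IgG 1, 307 without combination 2 and 366 without combination 3. Library totals gave 480 (112 lower), DESeq2 size factors 217 lower, no filter on low counts 463 (227 higher, 236 lower), DESeq2's Wald test 1423 (787 higher, 636 lower), log2(TPM + 1) 897 higher and 133 lower, log2(TPM + 0.1) 773 higher and 131 lower, a fit of the 2 groups alone 1786 (852 higher, 934 lower), counts divided by 4 252 lower, the muscle score as covariate 14 (13 higher, 1 lower), and the fit without libraries above 1000 CPM of Hbb-bs 561 higher. The causes of these differences were not tested; the covariate differs between the groups themselves, and fits without a tumour hold fewer samples.

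Against propafenone, 616 genes were called as reported. Library totals gave 347 (89 lower), DESeq2 size factors 207 lower, no filter 335 (159 higher, 176 lower), DESeq2 1465 (722 higher, 743 lower), limma voom 937 (528 higher), log2(TPM + 1) 638 higher and 135 lower, log2(TPM + 0.1) 465 higher and 107 lower, the 2 groups alone 1069 (515 higher, 554 lower), counts divided by 4 405 higher, and the fit without Hbb-rich libraries 1142 (587 higher, 555 lower). Without single tumours the total ran from 4 (without propafenone 3) to 1882 (without propafenone 4), higher genes from 4 to 860 and lower genes from 0 to 1022. The total was 23 without propafenone 5, 230 without propafenone 1, 392 and 405 without IgG 4 and 5, 405 without anti-PD-1 5, 959 without anti-PD-1 2, and 27 to 133 without single combination tumours. Against anti-PD-1 the 0 became 7 with DESeq2, 2 with log2(TPM + 1) and 1 in a fit of the 2 groups alone, and stayed 0 without each single tumour. Genes whose combination tumours lay wholly above IgG numbered 1157 with library totals and 1425 in TPM, and wholly below 510 and 319; without single tumours they ran from 813 to 1121 and from 1242 to 1525.

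Replicate numbers did not pair the tumours: deviations from group means correlated at -0.00694 on average over 30 pairs with a shared number (-0.41 to 0.369), and the best partner shared the number for 7 of 20 libraries. A replicate block gave 829 calls against IgG (381 higher, 448 lower) and 675 against propafenone (318 higher, 357 lower).

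Of 145 named genes past the threshold, 143 kept their direction under every one of the 32 alternatives that tested them, which for 6 of the 145 were fewer than 32. The exceptions were Pck1 and Ryr1, at -0.89 and -0.069 with the muscle covariate. These genes were chosen for passing in the same tumours that the alternatives reuse, so kept directions are no independent support. Of 44 named genes not past the threshold 9 changed sign. With the covariate Fth1 stood at 0.01, Ftl1 at 0.049, Gzmb at -0.32, Ifng at -1.90, mt-Co1 at 0.12, mt-Co2 at 0.19 and Cenpf at -0.009. Acsl4 was 0.02 with library totals, 0.067 and 0.072 in the TPM fits and -0.098 to 0.019 without single tumours (0.019 without IgG 3). Tfrc was 0.001 in both TPM fits. Ifng ran from -0.49 (without combination 1) to 1.25 without single tumours and was -0.007 without IgG 3. Named genes past the threshold under every alternative numbered 3.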

Other observations

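Several gene families outside the lists were picked after the values were seen and are given as measurements. Of 21 Src family and immune receptor signalling genes tested, which carry signals from Fc and antigen receptors in leukocytes, 13 rose. Lyn, a Src family kinase, rose by 0.76 (edgeR adjusted p = 0.026), Syk, the kinase that binds phosphorylated receptor tails, by 0.80 (0.03), Vav1, a guanine exchange factor of blood cells, by 2.08 (0.034) and Blnk, an adaptor of B cells and macrophages, by 2.61 (0.047). Lyn measured 8.39, 9.59, 8.07, 8.17 and 8.07 CPM in IgG tumours 1 to 5 and 19.9, 10.1, 16, 10.8 and 14.6 CPM in combination tumours 1 to 5, without overlap. Among 8 paired immunoglobulin-like receptors 5 rose, with a family median of 1.83, among 11 genes of the interferon-inducible Ifi200 family 5 rose (median 1.46), and among 10 Ms4a genes 3 rose (median 1.79). Members of these families are related in sequence to differing degrees, and how reads that match more than 1 gene were counted is not given. The maternally expressed noncoding RNAs Meg3 and Rian rose by 1.55 and 1.32, and Meg3 stood at 2.11 with the muscle covariate.

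Major urinary proteins, carriers of pheromones made mainly in liver and also in mammary and other glands, were tested for 8 of 22 genes in the table, and 7 of these rose at very low levels. With mean levels of 0 to 0.113 CPM in IgG tumours they could enter the test only through libraries where they were higher, so the filter on low counts largely set that share. They are near-identical copies that cannot be told apart as separate genes. Their summed level was 0 to 0.498 CPM in IgG and 0.0634 to 11.9 CPM in combination tumours, which overlap. The 4 copies of Dynlt1, a dynein light chain, all fell (median -0.38) and cannot be told apart as separate genes. Of 6 peroxiredoxins Prdx3 and Prdx2 fell.

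In all, 8 genes that rose were at 0 in every IgG tumour, as were 21 of the 15875 genes tested. Such genes could enter the test only through libraries of other groups, so a fall could not be called. Against an assumed floor of 3 counts per library the 8 were 10.1-fold (Tceal7), 9.37-fold (Mup13), 8.8-fold (Ms4a14), 6.0-fold (Gm10484), 5.98-fold (Ephx2), 5.1-fold (Cd209d), 4.77-fold (Serpina3c) and 4.13-fold (Nlrp1a) higher. That floor is under 1 fragment if 1 fragment stands for 4 counts. Mup13, Cd209d, Nlrp1a and Tceal7 were also at 0 in at least 1 combination tumour.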
